A study of Mus musculus with 4 samples.

Results

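The genes of the colony-stimulating factors and of their receptors were examined for MED1 occupancy in RAW 264.7 cells. All 8 genes of the group were found by name in RefSeq (build GRCm38.p6, which mm10 stands for), among 21887 protein-coding genes. They comprise 5 receptor genes (Csf1r, Csf2ra, Csf2rb, Csf2rb2 and Csf3r) and 3 ligand genes (Csf1, Csf2 and Csf3). The genes were taken by name and not by a measured value, but with earlier results of these data known. RAW 264.7 is a mouse monocyte and macrophage-like line that was derived from a tumour induced by Abelson leukaemia virus, and it stands here for macrophages as a single transformed line. MED1 is the subunit through which the Mediator complex meets many transcription factors. It was profiled by ChIP-seq in cells stimulated with lipopolysaccharide (LPS) for 2 h (2 libraries) and in untreated cells (2 libraries). The dose of LPS is uncertain, because the labels of the samples state 10 ng/mL and the protocol for the treatment states 100 ng/mL. The 2 conditions share the line, the antibody and the double fixation with DSG and formaldehyde.

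Colony-stimulating factors are secreted proteins that keep myeloid cells alive and drive their division and maturation. CSF1 (macrophage colony-stimulating factor) signals through the receptor tyrosine kinase CSF1R and is required by most macrophages. CSF2 (granulocyte-macrophage colony-stimulating factor) binds a receptor made of its own alpha chain, encoded by Csf2ra, and the common beta chain, encoded by Csf2rb, which interleukin 3 and interleukin 5 receptors also use. Csf2rb2 encodes a close relative of the common beta chain that in mice serves interleukin 3 alone. CSF3 (granulocyte colony-stimulating factor) and its receptor CSF3R drive the production of neutrophils. Macrophages stimulated with LPS are known to secrete colony-stimulating factors.

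The deposited list holds intervals for the series as a whole, so no interval could be assigned to LPS-stimulated or to untreated cells, and these conditions were not compared at the 8 genes. No interval has a height, a significance or a read count. Depth is therefore unknown, the values below carry no replicate error, and no test was made. Intervals that abut were joined into 22570 regions (median width 1948 bp). Positions and counts describe where MED1 was called in at least some of the material. The line's macrophage label was set beside marker genes: 10 of 10 macrophage markers were overlapped by a region, against 50.6% of all protein-coding genes. Of the other markers, 1 of 5 T cell, 0 of 5 B cell and 1 of 5 fibroblast markers were overlapped. The markers were chosen with earlier results of these data known, so this is a description and no independent check. The overlapped fibroblast marker is Pdgfrb, which lies next to Csf1r and held a region of 478 bp. The overlapped T cell marker is Lck, with 12 regions over it or within 50 kb. Cd4 had 15 such regions, more than any macrophage marker (at most 12), with 0 of them over the gene. The median number of regions over or within 50 kb of a marker was 7 for macrophage, 5 for T cell, 3 for B cell and 0 for fibroblast markers.

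MED1 regions lay at 7 of the 8 genes, and the 8 genes differed widely in how much sequence was occupied. Csf1r stood at the top, with 6 regions that overlapped it or had their midpoint within 50 kb of either end and that covered 33.5 kb. Csf2 stood at the bottom, with 0 regions. In all protein-coding genes, 70.6% had a region by this criterion. A region overlapped the body of the same 7 genes, against 50.6% of all genes, and had its midpoint within 1 kb of a gene end at 6 of them, against 36.8%. Overlap depends on gene length. Among genes within 1.5 times the length of each, the overlapped share was 36.0% for Csf2, 39.8% for Csf3 and 55.7 to 61.1% for the rest. The median was 3.5 regions per gene, against 2 in all genes, and the median covered length was 8.88 kb, against 4.21 kb. Within 10 kb the median was 1 region, the same as in all genes, and among regions no narrower than the median width 3 of the 8 genes were overlapped, against 32.0% of all genes. With 8 genes, of which Csf2rb and Csf2rb2 share regions, these shares and medians are descriptions of the group.

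**Figure D1:**
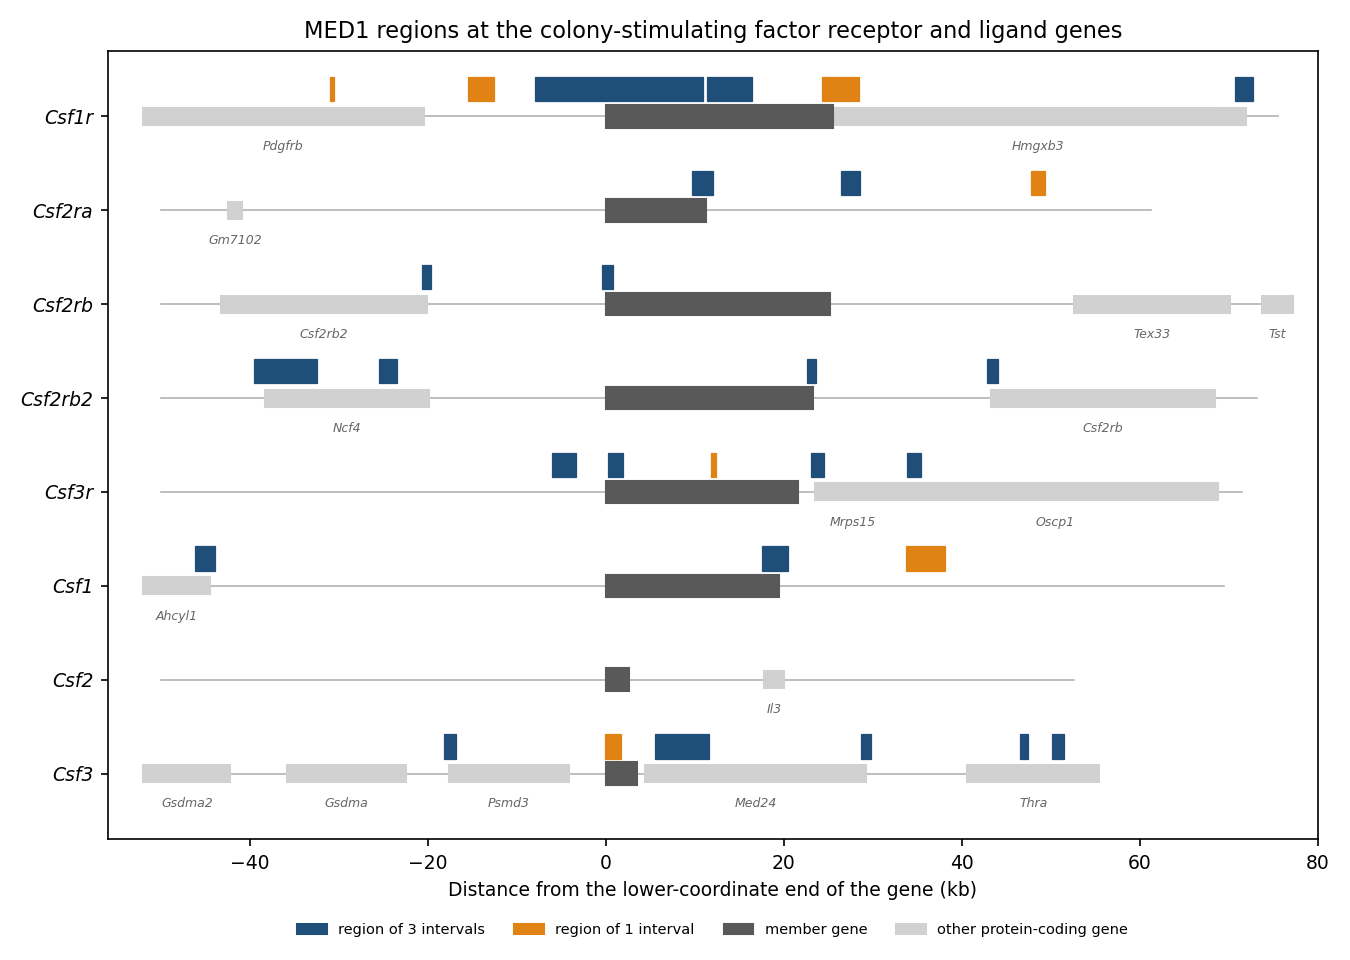
Map of MED1 regions around each of the 8 genes, receptors above ligands. The horizontal axis gives the distance in kb from the lower-coordinate end of the gene, dark grey boxes are the 8 genes, light grey boxes other protein-coding genes, and coloured boxes regions of 3 intervals (blue) or 1 interval (orange). Regions cover most of Csf1r and the sequence ahead of it, 1 region marks an end of Csf2ra, Csf2rb, Csf2rb2, Csf1 and Csf3, and the Csf2 window is empty.

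The promoters of Csf2ra, Csf2rb2, Csf3r and Csf1 are shown first because each lay within a region over all of its 300 bases. RefSeq windows (GRCm38.p6) were at hand for 5 of the 8 genes and run from 250 bases before the transcription start to 50 bases from it on. Capitals mark letters that match a searched motif on either strand.
Csf2ra: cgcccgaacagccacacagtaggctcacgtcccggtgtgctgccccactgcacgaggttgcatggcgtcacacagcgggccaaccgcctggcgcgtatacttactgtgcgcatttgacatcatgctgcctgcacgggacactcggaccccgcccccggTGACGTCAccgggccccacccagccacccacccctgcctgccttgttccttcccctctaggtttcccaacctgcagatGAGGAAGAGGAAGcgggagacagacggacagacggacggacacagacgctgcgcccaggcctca
Csf2rb2: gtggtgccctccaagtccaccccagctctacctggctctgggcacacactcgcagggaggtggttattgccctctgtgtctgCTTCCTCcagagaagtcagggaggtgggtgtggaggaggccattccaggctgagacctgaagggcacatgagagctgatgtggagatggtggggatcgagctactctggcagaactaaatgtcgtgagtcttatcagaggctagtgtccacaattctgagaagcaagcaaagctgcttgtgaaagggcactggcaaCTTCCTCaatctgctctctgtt
Csf3r: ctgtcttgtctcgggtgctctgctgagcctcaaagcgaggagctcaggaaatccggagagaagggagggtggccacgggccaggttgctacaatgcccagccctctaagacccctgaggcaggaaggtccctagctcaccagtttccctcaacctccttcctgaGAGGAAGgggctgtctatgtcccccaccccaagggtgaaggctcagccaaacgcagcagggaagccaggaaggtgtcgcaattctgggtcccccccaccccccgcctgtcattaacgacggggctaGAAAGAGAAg
Csf1: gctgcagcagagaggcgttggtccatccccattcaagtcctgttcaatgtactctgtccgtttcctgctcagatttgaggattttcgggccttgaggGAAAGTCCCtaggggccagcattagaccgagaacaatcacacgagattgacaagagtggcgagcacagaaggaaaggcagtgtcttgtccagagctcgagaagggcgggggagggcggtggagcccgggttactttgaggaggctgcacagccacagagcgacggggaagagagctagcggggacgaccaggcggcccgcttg

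The Csf2ra window lies at chr19:61228369-61228668 and the Csf2rb2 window at chr15:78305672-78305971, both on the minus strand. The Csf3r window lies at chr4:126024409-126024708 on the plus strand, and the Csf1 window at chr3:107760420-107760719 on the minus strand. The Csf2 window (chr11:54249850-54250149, minus strand) had 0 bases in a region. Of 21238 promoter windows of protein-coding genes, 43.6% overlapped a region, beside 4 of the 5 windows here. In each of the 4 occupied promoters the region consisted of 3 abutting intervals and the transcription start lay in the middle interval. The same held for 95.6% of the 7168 starts that lay in a region of 3 intervals, so this placement is the common one. The region reached 748 bp upstream and 1562 bp downstream of the start at Csf2ra, and 356 bp upstream and 641 bp downstream at Csf2rb2. At Csf3r it reached 1001 bp upstream and 674 bp downstream, and at Csf1 1068 bp upstream and 1940 bp downstream. Thus 3 of the 4 regions extended further downstream of the start than upstream of it, and the Csf3r region did the opposite. The annotated Csf3r gene begins at 126023441, upstream of that start, so all 1676 bp of its region lay inside the gene.

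The promoters differed in base composition. The Csf2ra window held 23 CpG dinucleotides (65.3% G and C) and the Csf1 window 16 (58.7%). The Csf3r window held 9 (60.7%), and the Csf2rb2 and Csf2 windows 3 each (55.0 and 56.7%). The median was 22 CpG among all windows in a region and 5 among windows outside. Csf2ra alone reached the median of occupied windows, and Csf2rb2 was occupied with fewer CpG than the median of unoccupied ones.

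Letters of the site of PU.1, the factor that directs macrophage and neutrophil development, were present in all 3 receptor promoters at hand. GAGGAAG was searched on both strands and was held by 13.6% of all windows. Csf2ra had 2 matches that share 1 base, at positions -14 to -8 and -8 to -2 from the transcription start (position 0). Csf2rb2 had 2 on the opposite strand, at -168 to -162 and 28 to 34, and Csf3r had 1 at -86 to -80. Among all windows, 1.14% held 2 or more matches. The Csf1 and Csf2 windows held 0. Csf2ra also held the cyclic AMP response element TGACGTCA at -92 to -85, which 3.72% of windows in a region held, against 1.09% of windows outside and 2.24% of all windows. Csf1 held GGGNNTTTC, part of the site of NF-kB, which LPS activates, on the opposite strand at -153 to -145 (4.26% of windows). GAAANNGAA, part of the interferon response element, was found in Csf3r at 40 to 48 and in Csf2 at -199 to -191 (8.13% of windows). The C/EBP letters TTGCNNAA were found in Csf2 at -145 to -138 (10.2% of windows). The letters of AP-1 (TGANTCA, 6.99% of windows), RUNX (TGTGGT, 3179 of the 21238 windows) and the TATA box (TATAAA, 12.6%), also searched on both strands, were in none of the 5 windows. For the other motifs the shares among windows in a region and outside were 13.3 and 13.8% (PU.1), 4.41 and 4.14% (NF-kB) and 7.33 and 8.76% (GAAANNGAA). They were 7.96 and 11.9% for C/EBP, 4.61 and 8.84% for AP-1, 12.0 and 17.2% for RUNX and 6.35 and 17.4% for TATA. Matches are letters in these windows and were not tested as binding sites.

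**Figure D2:**
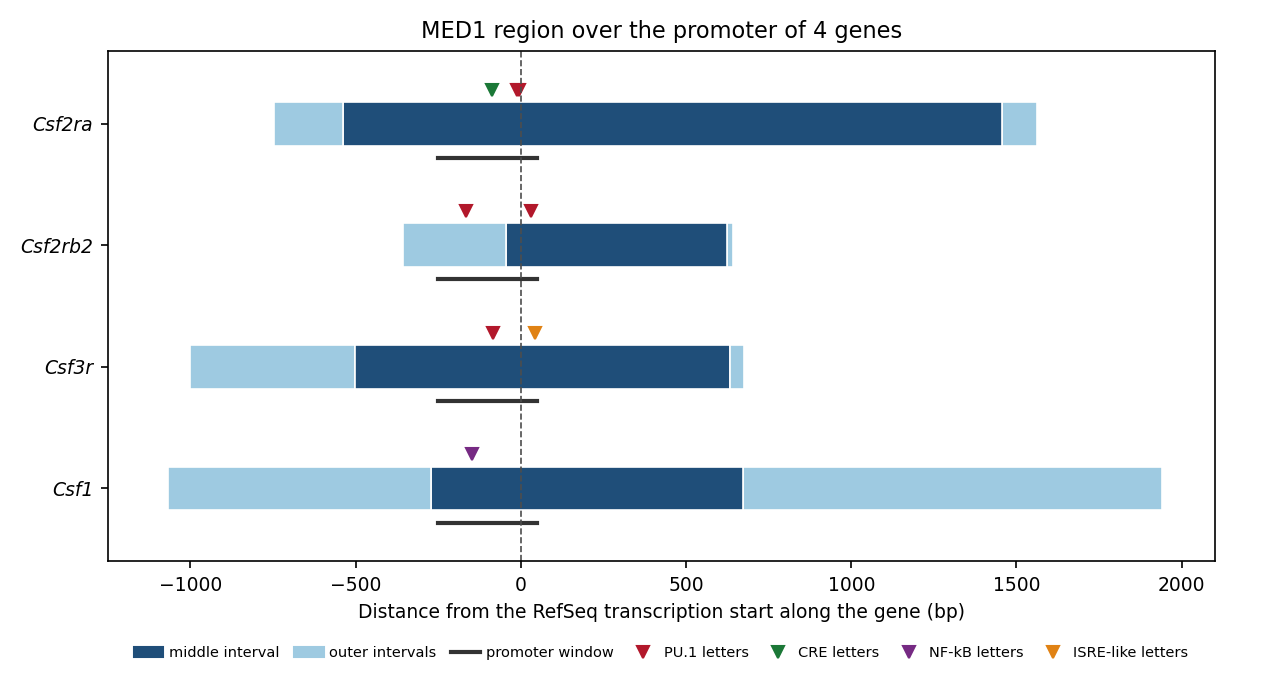
MED1 region over the promoter of Csf2ra, Csf2rb2, Csf3r and Csf1. The horizontal axis gives the distance in bp from the RefSeq transcription start along the gene, dark blue is the middle interval, light blue the outer intervals, the black line the promoter window and triangles the motif matches. The start lies in the middle interval in all 4, and the Csf1 region is the widest of the 4 at 3009 bp.

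Csf1r (chromosome 18, 61105572 to 61131139) carried the most MED1 sequence of the group. A region of 18962 bp (61097562 to 61116523) began 8.01 kb outside the gene, on the side of Pdgfrb, and ran 10952 bp into it. Transcription of Csf1r is known to begin on that side. This region ranked 86 in width among all 22570, and 0.381% of regions were at least as wide. A gap of 398 bp separated it from a region of 5064 bp inside the gene (61116922 to 61121985), which also covered the microRNA gene Mir6983 and the long non-coding RNA gene Gm52352. A region of 4129 bp (61129828 to 61133956) spanned the far end of the gene and the adjoining end of Hmgxb3, which is 0.138 kb away by annotation. Together these 3 regions covered 17.3 kb, or 67.8% of the Csf1r body. Only 1.32% of protein-coding genes had as many bases covered, and among 4766 genes within 1.5 times its length, 0.546% had as large a share covered.

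The rest of the Csf1r window was occupied more thinly. A region of 2892 bp (61090067 to 61092958) lay between Pdgfrb, the receptor gene for platelet-derived growth factor, and Csf1r, 12.6 kb from the Csf1r body. A region of 478 bp (61074533 to 61075010), a width that 98.7% of regions reached, lay inside Pdgfrb, and a region of 1981 bp (61176281 to 61178261) lay 45.1 kb beyond the far end, at Hmgxb3 and LOC108168367. By distance from the region midpoint, the nearest gene was Csf1r for 2 of the 6 regions. Stitched over gaps up to the distance customary for super-enhancers, 4 of the 6 regions formed a cluster of 43.9 kb (61090067 to 61133956) with 31.0 kb covered. It ranked 128 of 13554 clusters by covered length, and 0.944% of clusters covered as much. By number of regions it ranked 504, behind the Csf3r cluster at 270. The covered length of 33.5 kb within 50 kb was reached by 2.34% of protein-coding genes. Csf1r-ps, an annotated pseudogene on chromosome 19 (60052114 to 60081625), had 0 regions over it or within 50 kb.

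Csf2ra (chromosome 19, 61217191 to 61228461) had 3 regions, a number that 46.1% of genes reached. The promoter region of 2311 bp (61226856 to 61229166) covered 1606 bp, or 14.2%, of the gene. The other regions lay ahead of the promoter, where no further protein-coding gene stood within 50 kb. They were a region of 2156 bp (61243562 to 61245717), 15.1 kb from the gene, and a region of 1 interval and 1568 bp (61264953 to 61266520), 36.5 kb from it. Csf2ra was the gene nearest to all 3, the only gene of the group for which no region in its window lay closer to another gene, apart from Csf2 with 0 regions.

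The beta chain genes Csf2rb2 (chromosome 15, 78282507 to 78305721) and Csf2rb (78325800 to 78351001) lie next to each other, 20.1 kb apart, and showed the smallest body occupancy among occupied genes. Each had a single region, placed at the end that faces the other gene. The Csf2rb2 region of 998 bp (78305080 to 78306077) covered 642 bp, or 2.77%, of that gene. The Csf2rb region of 1287 bp (78325312 to 78326598) covered 799 bp, or 3.17%, and began 488 bp outside the gene. Both lay below the median width, since 86.7% and 75.6% of all regions were at least as wide. Both were counted for both genes, so the 29 counts of the group stand for 27 distinct regions. Csf2rb2 reached 4 regions through Ncf4, the gene of an NADPH oxidase subunit, which held a region of 7095 bp (78242942 to 78250036) and a region of 2026 bp (78256995 to 78259020). Csf2rb had 2. Beyond it, the next region (78405370 to 78407063) lay 54.4 kb away at Tst. The sequences of the 2 genes are close copies in parts, and how the authors treated reads that fit both is not given, so the split of regions between them is uncertain.

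Csf3r (chromosome 4, 126023441 to 126044975) had 5 regions, which 25.2% of genes reached, and 4 of the 5 were narrower than the median of all regions. They measured between 608 and 2686 bp and covered 8.01 kb in all. The promoter region of 1676 bp (126023658 to 126025333) had its midpoint 1.05 kb from the annotated gene end, just outside the 1 kb that counts as a gene end. A region of 2686 bp (126017410 to 126020095) lay 3.35 kb ahead of the gene, over the long non-coding RNA gene Gm32908. Inside the gene was a region of 1 interval and 608 bp (126035191 to 126035798). The remaining regions lay past its far end, at an end of Mrps15, a mitochondrial ribosomal protein gene (1437 bp, 126046507 to 126047943), and inside Oscp1 (1600 bp, 126057278 to 126058877). Regions covered 2284 bp, or 10.6%, of the Csf3r body. All 5 fell into a single cluster of 41.5 kb with 8.01 kb covered, ranked 1742. At the stitching distance customary for super-enhancers, the Csf1r and Csf3r clusters are thus similar in span, 43.9 and 41.5 kb. Their regions covered 31.0 kb at Csf1r and 8.01 kb at Csf3r. With stitching within 5 kb, the best-ranked cluster over Csf3r stood at 3529 of 17353, and that over Csf1r at 101.

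**Figure D3:**
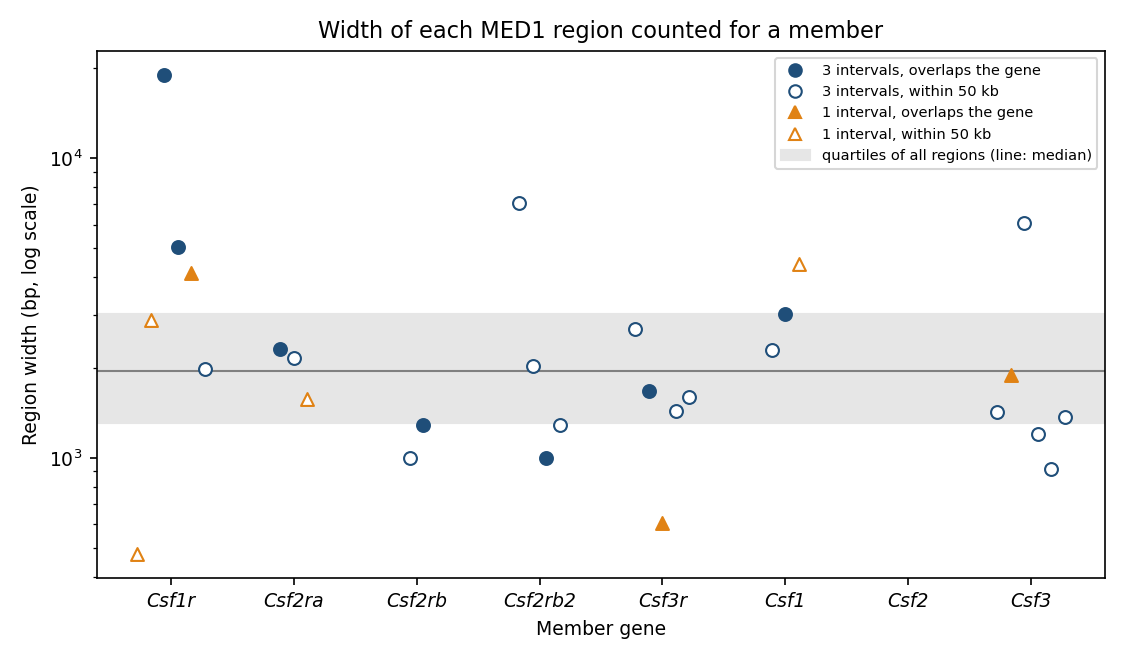
Width of every region counted for the 8 genes, on a log axis in bp. Circles are regions of 3 intervals, triangles regions of 1 interval, filled symbols overlap the gene and open symbols lie within 50 kb. The grey band spans the quartiles of all regions (1302 to 3012 bp, median 1948 bp). The widest point, at Csf1r, is 18962 bp, and Csf2 has no point.

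Of the ligand genes, Csf1 (chromosome 3, 107741048 to 107760469) had 3 regions covering 9.75 kb. The promoter region of 3009 bp (107758529 to 107761537) covered 1941 bp, or 9.99%, of the gene and also overlapped the long non-coding RNA gene Gm40121. A region of 1 interval and 4446 bp (107774751 to 107779196), which 12.1% of regions matched or exceeded in width, lay 14.3 kb ahead of the gene and also over Gm40121. The third, of 2297 bp (107694820 to 107697116), lay 43.9 kb away at an end of Ahcyl1. Csf1 was the gene nearest to 2 of its 3 regions.

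Csf3 (chromosome 11, 98700183 to 98703631) was occupied by a region of a different make from the promoter regions above. It was a single interval of 1888 bp (98700027 to 98701914) that began 156 bp outside the gene and covered 1732 bp, or 50.2%, of this short gene, and it also overlapped the long non-coding RNA gene Gm38985. Among 2351 genes within 1.5 times its length, 14.4% had as large a share covered. Csf3 equalled Csf1r with 6 regions, a count that 17.2% of genes reached, but was the nearest gene to that interval alone. The other 5 lay at neighbours. A region of 6088 bp (98705651 to 98711738), 2.02 kb past the far end of Csf3, was inside Med24, which itself encodes a Mediator subunit. A region of 1202 bp (98728811 to 98730012) lay at the other end of Med24, and a region of 1423 bp (98681919 to 98683341) at an end of Psmd3, a proteasome subunit gene. Regions of 917 bp (98746670 to 98747586) and 1364 bp (98750272 to 98751635) lay in Thra, a thyroid hormone receptor gene.

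Csf2 (chromosome 11, 54247270 to 54249899) was the exception in the group, with 0 regions over the gene or within 50 kb. It lay in a stretch of 279 kb without a region. The flanking regions were 89.4 kb away near P4ha2 (54155168 to 54157843) and 187 kb away near Fnip1 (54437154 to 54440469). The stretch holds 4 protein-coding genes, Csf2, Il3, Acsl6 and Meikin. Il3, the neighbouring gene of interleukin 3, likewise had 0 regions. Of protein-coding genes, 23.8% lay at least as far from their closest region as Csf2. The median gap between neighbouring regions was 19.2 kb, and 7.24% of gaps were at least as long as this stretch. A missing region in this list does not show that MED1 was absent, since depth and the threshold of the calls are unknown.

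The make of the regions was set beside that of all regions. Of the 27 distinct regions, 20 had 3 abutting intervals (74.1%, against 60.4% of all regions) and 7 had 1 interval (25.9%, against 35.3%). Single intervals were the Csf3 region, the narrow region inside Csf3r, the region ahead of Csf1, the farthest region ahead of Csf2ra and 3 of the 6 regions of Csf1r. In 18 of the 20 regions of 3 intervals the middle interval was the widest, as in 92.4% of 13627 such regions. The exceptions were the second region inside Csf1r, with intervals of 2914, 1058 and 1092 bp in genome order, and the Csf1 promoter region, with 1270, 943 and 796 bp. In the widest Csf1r region the intervals measured 18, 11996 and 6948 bp. The sources used here do not say what the borders between abutting intervals stand for. In width, the 27 regions had a median of 1981 bp, close to 1948 bp over all regions, and 14 of the 27 reached 1948 bp.

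Genes that work with the colony-stimulating factors were counted in the same way. Of 12 other haematopoietic cytokine and receptor genes, 9 had a region within 50 kb and 3 were overlapped by one (median 3 regions). Flt3l and Epor had 6 each, Il5 had 5 and Flt3 had 4, and Il3, Il3ra and Kit had 0. Il3ra encodes the alpha chain that joins CSF2RB or CSF2RB2. Il34, the other ligand of CSF1R, had 1 region, with a midpoint 40.4 kb from the gene. All 27 genes of signalling downstream of the receptors had a region over the gene (median 6 regions, 13.9 kb covered). The adaptor gene Grb2 and the kinase gene Mapk3 had 13 each, and Ptpn6, the gene of a phosphatase that restrains these receptors, had 10. All 16 genes of transcription factors known to act at the receptor or ligand genes were also overlapped (median 6 regions, 24.7 kb covered). Runx1 had 15, Irf8 and Fos had 9 each, Cebpa had 8, and Spi1, which encodes PU.1, had 5 covering 32.9 kb. Spi1, and Tyrobp of the signalling list, are also among the macrophage markers above. Among 11 granulocyte genes, 10 had a region within 50 kb and 4 were overlapped (median 2 regions). Elane and Prtn3, which are neighbours, had 9 each, Ltf had 5, Mmp9 had 3 and Ly6g had 0. These counts stand beside 70.6% of all genes with a region and 50.6% overlapped, and no difference between lists was tested.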

How the data were processed

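MED1 ChIP-seq libraries of LPS-stimulated (2) and untreated RAW 264.7 cells (2) were sequenced as single reads, per the labels' protocols. Per the submitters' processing notes, Bowtie, SAMtools, MACS2 2.2.6 and mm10 were used. The control, any pooling and the peak-calling settings were not given in the sources used here. In the file the authors deposited are 53764 intervals, and its score column reads 0 throughout and was not used. There were 0 columns of other samples, and 4 mitochondrial intervals were left out.

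Abutting intervals were joined. Gene positions and promoter sequences came from RefSeq GRCm38.p6, and no exons were used. Strand came from the promoter windows, which lack Csf1r, Csf2rb and Csf3. Coordinates are 1-based. Widths were set beside those of all regions, and counts and covered lengths beside the same values over all protein-coding genes. The counting was tested on simulated data. Python 3.11.15, numpy 2.4.6, pandas 2.3.3 and matplotlib 3.10.9 were used.

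The 8 genes, the lists and the motifs were chosen with earlier results of these data known. Named genes were the 8 genes, the gene nearest to each region counted, and up to 4 list genes with the most and 3 with no regions. In the signalling list 4 genes tied for the fourth place at 8 regions (Lyn, Src, Gab2 and Pik3cg). P4ha2, Fnip1, Acsl6, Meikin, Tst, Il34, Spi1, Tyrobp, Lck, Cd4, Csf1r-ps and the non-coding genes Mir6983, Gm52352, Gm32908, Gm40121 and Gm38985 were named after their values were seen. Alternatives were other windows, joining rules, width and interval filters, overlap in place of midpoints, nearest-gene assignment, stitching within 5 kb and ranking by number of regions.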

Additional observations from a re-analysis of the deposited data

How the results depend on the processing

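The counts of genes with a region within 50 kb (6 to 8 of 8 over all alternatives) moved little, and the medians followed the window. Over all genes the share with a region was 70.6% in the main setting, 57.9% within 10 kb and 77.1% within 100 kb. It was 56.0% among regions no narrower than the median and 65.8% with regions of 1 interval left out. With a window of 10 kb the median was 1 region and 2.66 kb covered per gene, against 1 and 1.49 kb in all genes. With 100 kb it was 5.5 regions and 15.5 kb, against 4 and 7.86 kb, and Csf2 had 2 regions. Unjoined intervals gave a median of 9.5, against 5. Keeping regions no narrower than the median of all regions, the median was 1.5 regions and 5.28 kb, against 1 and 2.34 kb. By that filter 3 of 8 genes were overlapped, against 32.0% of all genes, 3 of 8 had a region at an end, against 19.5%, and Csf2rb had 0 regions. Counting only regions nearest to the gene gave a median of 1.5, with Csf3 at 1 and Csf1r at 2. The median over all genes was not computed for this count. Csf3r counted as having a region at an end with a gene-end window of 2.5 kb, for which the share over all genes was not computed. With any overlap with the gene-end window, 7 of 8 genes had a region at an end, against 45.5% of all genes. The Csf1r cluster ranked 101 of 17353 with stitching within 5 kb, where the best-ranked cluster over Csf3r ranked 3529, against 1742 of 13554 in the main setting. By the number of regions in a cluster, the Csf1r cluster ranked 504 and the Csf3r cluster 270. Joined within 500 bp, the start of Csf1r lay in a region of 24.4 kb, ranked 58 of 21458. Of 64 recomputed counts of single genes, 36 stayed within 1.5 times and 28 moved further. The 36 include each setting in which Csf2 stayed at 0 regions. No paired analysis was possible because no value per library is given. Depth, peak height and the share of background calls are unknown, and conditions cannot be told apart.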
